A study of Spodoptera frugiperda with 3 samples.

Results

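Of the 30327 unigenes in the 3 deposited expression tables of fall armyworm (*Spodoptera frugiperda*) larvae, 5 whose best match in the NR protein database was a larval, cuticle or endocuticle structural protein are described here. They were c162995_g1_i3 (larval cuticle protein 1-like, LCP-1-like below), c119055_g1_i1 (cuticle protein 10.9-like), c148463_g1_i1 (endocuticle structural glycoprotein ABD-5-like), c170679_g1_i1 (LCP-14-like) and c154439_g1_i1 (LCP-30-like). These 5 were picked by name from a list drawn up with their read counts in view, so their levels and ratios are given as a description and no count of them is evidence of a pattern. A further 11 unigenes in the tables carried a cuticle protein name and were used for comparison. Wild-type larvae on an artificial diet were exposed for 16 h to cold of 4 °C (T4) or to heat of 40 °C (T40), and the control larvae (T25) were kept at 25 °C for a time that the sources do not give. Whole bodies of 5 larvae were pooled into 1 library per temperature, which leaves no replicate and therefore no p-value. The labels place the larvae in the fourth instar and the methods place RNA extraction in the fifth, and neither gives the time since the last moult.

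The insect cuticle is made of chitin fibres in a matrix of structural proteins, and the epidermis below it secretes both. Most of these proteins belong to the CPR family, whose Rebers and Riddiford sequence (the Pfam domain Chitin_bind_4) binds chitin. A larva builds a new cuticle under the old one before each moult and keeps adding inner layers, the endocuticle, between moults, and transcript levels of single cuticle proteins are known to swing widely over that cycle.

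The annotation in the tables placed all 5 unigenes in this family. A Chitin_bind_4 match of 54 to 60 residues was recorded for 5 of 5, and the GO term for a structural constituent of cuticle for 4 of 5. The LCP-1-like unigene had the larval cuticle protein 16/17 of the tobacco hornworm *Manduca sexta* as its UniProt match, and the LCP-14-like unigene had the LCP-14 of the same moth. The LCP-30-like unigene matched LCP-30 of the silkworm *Bombyx mori*, and the ABD-5-like unigene matched a flexible cuticle protein of the giant silk moth *Hyalophora cecropia*. The cuticle protein 10.9-like unigene had neither a UniProt match nor a GO term and is named by its NR and Pfam matches alone. In NR, the best match was to *S. litura*, a moth of the same genus, for 4 of 5, and to the cotton bollworm *Helicoverpa armigera* for the ABD-5-like unigene. The unigenes are contigs of a de novo assembly without genome positions, and reads of close relatives in this family may have been divided among them by the counting.

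For T4, T25 and T40 respectively, the tables held 24403584, 16678975 and 21560373 reads. The 10 unigenes with the most reads took 43.6% of them in T4, 33.5% in T25 and 13.4% in T40, so the libraries differed in how far a few transcripts filled them. Fold differences below are ratios of read counts divided by the effective library sizes that the authors' normalized values imply (rounded, T4 36483900, T25 28015900 and T40 38643800 reads). Each has a 95% exact interval for the sampling of reads alone, and differences from larva to larva are outside it. FPKM, the fragment count scaled to unigene length and sequencing depth, is used where levels of single unigenes are set against each other. Sums over unigenes are given from scaled reads, with the FPKM sum where it moves the fold by over 1.5 times or turns its direction. RNA came from whole bodies, in which fewer cuticle-forming cells and less RNA per such cell cannot be told apart.

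Added together, the 5 unigenes had levels of the same order at 4 and 25 °C and a far lower level at 40 °C. Their reads summed to 99433 in T4, 49369 in T25 and 1667 in T40. Per 1000000 reads of the effective library size (RPM) this was 2725 (95% exact Poisson interval 2708 to 2742) in T4, 1762 (1747 to 1778) in T25 and 43.1 (41.1 to 45.3) in T40. The sum was thus 1.55-fold higher at 4 °C than at 25 °C (95% counting interval 1.53 to 1.56), 40.9-fold lower at 40 °C than at 25 °C (38.9 to 42.9) and 63.2-fold lower at 40 °C than at 4 °C (60.2 to 66.4). As a share of the reads in the tables, the 5 unigenes took 0.407% in T4, 0.296% in T25 and 0.00773% in T40. FPKM summed to 2682, 2477 and 46.3 in the same order, so that per length the cold and control libraries were closer.

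**Figure D1:**
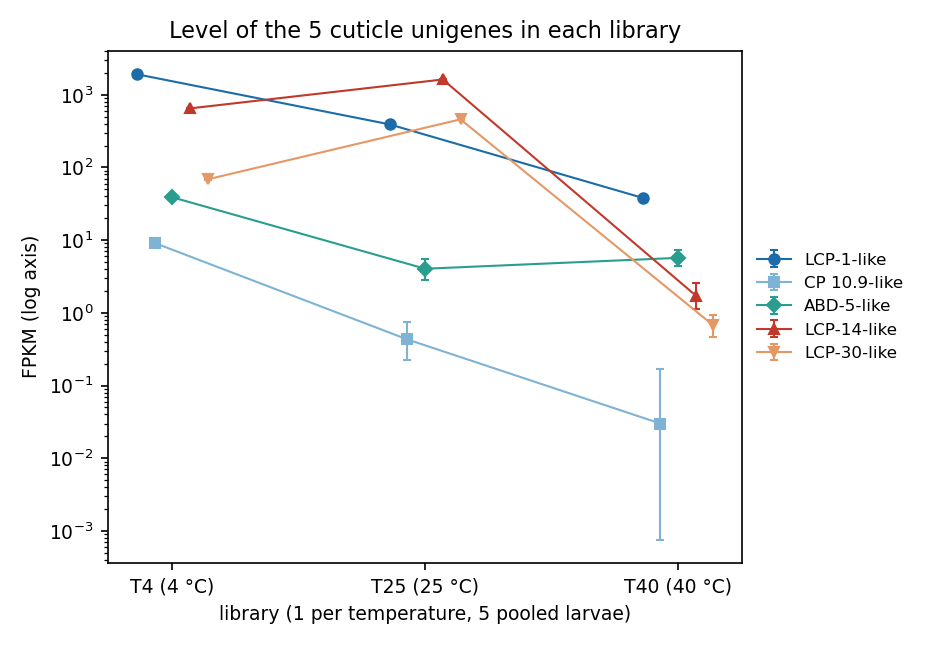
Level of each cuticle unigene in the 3 libraries, as FPKM on a log axis, with 1 point per library of 5 pooled larvae; bars are 95% counting intervals and lines join the points of a unigene. The LCP-14-like and LCP-30-like unigenes peak in T25 at 1622 and 459 and end at 1.73 and 0.67 in T40, while the LCP-1-like, cuticle protein 10.9-like and ABD-5-like unigenes are highest in T4.

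The LCP-1-like unigene had 84275 reads in T4, 12424 in T25 and 1538 in T40, or an FPKM of 1916, 391 and 38.2. It was high in all 3 libraries, highest in the cold one, and stood at rank 19 of the unigenes in the tables by FPKM in T4, at rank 86 in T25 and at rank 1182 in T40. It was 5.21-fold higher in T4 than in T25 (95% counting interval 5.11 to 5.31), 11.1-fold lower in T40 than in T25 (10.6 to 11.8) and 58.0-fold lower in T40 than in T4 (55.2 to 61.1). On the authors' normalized log2 scale its levels were 11.17, 8.80 and 5.35.

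The LCP-14-like unigene was the highest of the 5 by FPKM in the control library. It had 10586 reads in T4, 18972 in T25 and 26 in T40, or an FPKM of 649, 1622 and 1.73. The control library was the highest, the cold library was of the same order and the hot library lay far below both, and the rank of the unigene went from 20 in T25 to 11495 in T40. It was 2.33-fold lower in T4 than in T25 (95% counting interval 2.28 to 2.39) and is not listed in the authors' T4/T25 table. It was 1006.5-fold lower in T40 than in T25 (687 to 1541) and 431-fold lower in T40 than in T4 (294 to 661).

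The LCP-30-like unigene followed the same order of libraries. It had 3709 reads in T4, 17923 in T25 and 33 in T40, or an FPKM of 68.6, 459 and 0.67. By FPKM it ranked 68 in T25, 438 in T4 and 17367 in T40. It was 6.29-fold lower in T4 than in T25 (95% counting interval 6.07 to 6.52), 749-fold lower in T40 than in T25 (533 to 1089) and 119-fold lower in T40 than in T4 (84.6 to 173). The counting intervals of the T40/T25 folds of the LCP-14-like and LCP-30-like unigenes, which rest on 26 and 33 reads at 40 °C, overlap.

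The cuticle protein 10.9-like unigene was the least abundant of the 5 in every library. It had 352 reads in T4, 12 in T25 and 1 in T40, or an FPKM of 9.15, 0.43 and 0.03. Only the cold library held enough reads to place it well, and in T40 its level has a counting interval of 0.00076 to 0.167 FPKM. It was 22.5-fold higher in T4 than in T25 (95% counting interval 12.7 to 44.0), a ratio that rests on the 12 control reads. In T40 against T25, 1 read against 12 gave a ratio of 0.0604 (0.00141 to 0.408), and against the 352 reads of T4 a ratio of 0.00268 (6.77e-05 to 0.0150).

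The endocuticle ABD-5-like unigene, named for a protein of the inner cuticle, was highest in the cold library and had its fewest reads in the control. It had 511 reads in T4, 38 in T25 and 69 in T40, or an FPKM of 38.9, 4.04 and 5.70. The cold library stood apart, and the control and hot libraries lay close together. It was 10.3-fold higher in T4 than in T25 (95% counting interval 7.42 to 14.8) and 7.84-fold lower in T40 than in T4 (6.09 to 10.2). The ratio of T40 to T25 was 1.32 (0.874 to 2.01), an interval that includes 1, and this comparison is not listed in the authors' T40/T25 table.

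**Figure D2:**
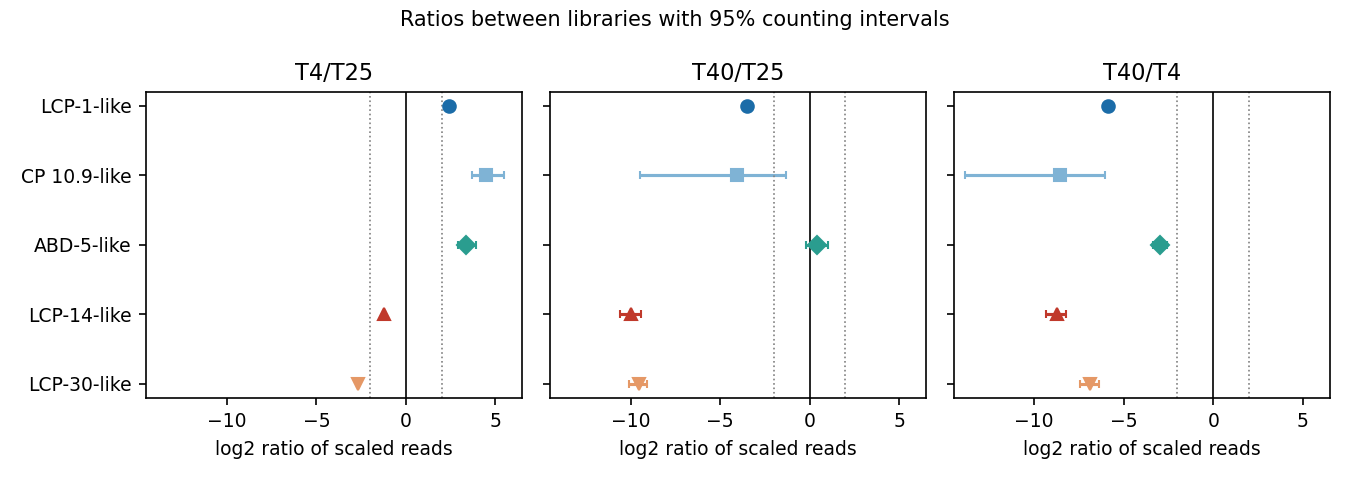
Log2 ratios of scaled reads of the 5 unigenes in the comparisons T4/T25 (left), T40/T25 (middle) and T40/T4 (right) and their 95% counting intervals; dotted lines mark a 4-fold difference either way and the solid line no difference. All T40/T4 points lie left of the 4-fold line, the T4/T25 points lie on both sides of 0, and the widest bars belong to the cuticle protein 10.9-like unigene with its 1 read in T40.

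Counted over the 5 unigenes, 3 were at least 4-fold higher in T4 than in T25 and 1 was at least 4-fold lower. The shares were 20.0% and 12.7% of all 11361 unigenes whose higher library had 50 or more reads, the minimum for such counts throughout. Here and below, all unigenes means those that the authors called in at least 1 comparison, so these shares are not those of the whole assembly. In T40 against T25, 4 of the 5 met that minimum, and 0 of these were at least 4-fold higher and 3 at least 4-fold lower, beside 30.7% and 30.1% of 13008 unigenes. In T40 against T4, 0 were higher and 5 of 5 lower by that measure, beside 22.5% and 31.1% of 13145. The median log2 ratio of the 5 was 2.38 for T4/T25, -4.05 for T40/T25 and -6.90 for T40/T4, and that of all unigenes meeting the minimum was 0.20, 0.49 and -0.31. The value of -4.05 is that of the cuticle protein 10.9-like unigene with its 1 and 12 reads, and over the 4 that met the minimum the T40/T25 median was -6.51. The authors' tables list the LCP-1-like, cuticle protein 10.9-like and LCP-30-like unigenes in all 3 comparisons, and of all 30327 unigenes 40.1% are listed for T4/T25, 66.2% for T40/T25 and 62.3% for T40/T4. Because the unigenes were chosen on these same comparisons, nothing is read from these counts.

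The order of the 5 unigenes by FPKM was different in each library. In T4 it ran from LCP-1-like through LCP-14-like, LCP-30-like and ABD-5-like down to cuticle protein 10.9-like. In T25 the LCP-14-like unigene came first, then LCP-30-like, LCP-1-like, ABD-5-like and cuticle protein 10.9-like. In T40 the LCP-1-like unigene led and the ABD-5-like unigene was next, ahead of LCP-14-like, LCP-30-like and cuticle protein 10.9-like. Neighbours in each order had counting intervals that did not overlap, which says nothing of the spread between larvae.

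Among the larval cuticle proteins, the FPKM ratio of a pair of unigenes within a library does not depend on how libraries are scaled. For LCP-1-like (c162995_g1_i3) over LCP-30-like (c154439_g1_i1), the FPKM ratio was 27.9 in T4 (95% counting interval 27.0 to 28.9), 0.853 in T25 (0.833 to 0.872) and 57.0 in T40 (40.4 to 83.1). For LCP-1-like over LCP-14-like (c170679_g1_i1) it was 2.95 in T4 (2.89 to 3.01), 0.241 in T25 (0.236 to 0.247) and 22.1 in T40 (15.0 to 33.9). In both cases the LCP-1-like unigene was below its partner in the control library and above it in the other libraries. The ratio of LCP-14-like to LCP-30-like moved over a smaller range, with 9.47 in T4 (9.12 to 9.83), 3.54 in T25 (3.46 to 3.61) and 2.58 in T40 (1.48 to 4.45), and its T25 and T40 intervals overlap.

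The make-up of the summed FPKM differed between libraries. In T4 the LCP-1-like unigene held 71.4% of the FPKM of the 5, with 24.2% for LCP-14-like and 2.56% for LCP-30-like. In T25 the LCP-14-like unigene held 65.5%, LCP-30-like 18.5% and LCP-1-like 15.8%. In T40 the LCP-1-like unigene held 82.4% and the ABD-5-like unigene 12.3%, after 1.45% in T4 and 0.163% in T25. The cuticle protein 10.9-like unigene held 0.341% in T4, 0.0174% in T25 and 0.0648% in T40. As shares of reads, which count long unigenes more, LCP-1-like held 84.8%, 25.2% and 92.3% in T4, T25 and T40, and in T25 LCP-14-like and LCP-30-like lay close together at 38.4% and 36.3%.

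**Figure D3:**
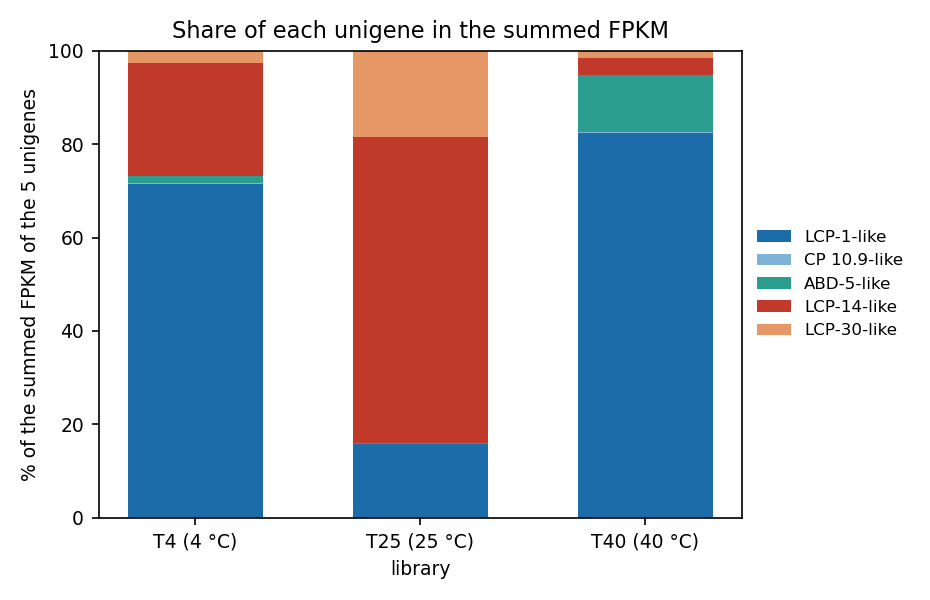
Share of each unigene, in percent, in the summed FPKM of the 5 cuticle unigenes in T4, T25 and T40. The LCP-1-like unigene takes 71.4% in T4, 15.8% in T25 and 82.4% in T40, and the cuticle protein 10.9-like unigene is too small to be seen.

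When each unigene is placed by its log2 T4/T25 and log2 T40/T25 ratios, the LCP-14-like and LCP-30-like unigenes were the nearest pair, at a distance of 1.49. The LCP-1-like and cuticle protein 10.9-like unigenes were next, at 2.19, both higher in the cold library and lower in the hot one. The farthest pair was ABD-5-like and LCP-30-like, at 11.6. Both axes share the T25 library, so positions on them are not independent.

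**Figure D4:**
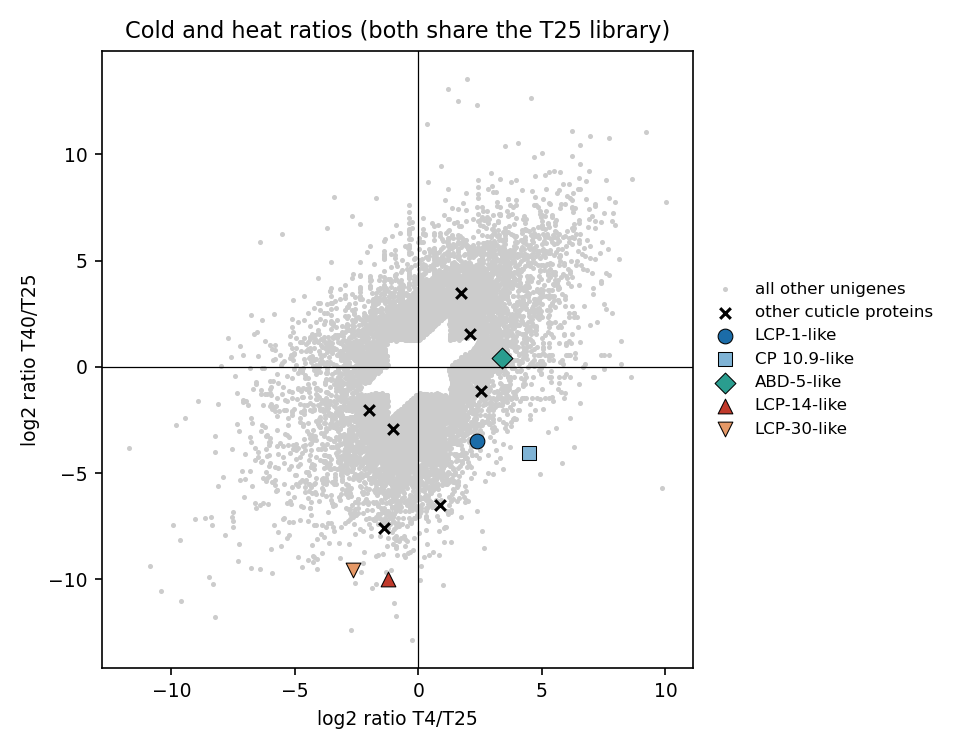
Log2 ratio of T4 to T25 (horizontal) and of T40 to T25 (vertical) for the 12597 unigenes with counts in all 3 libraries and at least 50 reads in the highest, with the 5 cuticle unigenes as large symbols and other cuticle proteins as crosses. The centre is empty, as the tables list only unigenes that the authors called in some comparison, and the LCP-14-like and LCP-30-like unigenes sit near the lower edge at -9.98 and -9.55.

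By the same distance, the 2 nearest of 3683 unigenes with a named protein were looked up for each cuticle unigene. Nearest to the LCP-1-like unigene were a pair of cytochrome P450 unigenes, CYP6B48 (c181046_g1_i1, distance 0.32) with 1101, 184 and 19 reads in T4, T25 and T40, and CYP321B1 (c170721_g1_i1, 0.34) with 6686, 1239 and 146. The ABD-5-like unigene lay closest to a roundabout homolog 1-like unigene (c172829_g1_i1, 0.14) with 69, 5 and 10 reads and to a vitellogenin-like unigene (c188729_g1_i6, 0.17) with 367, 25 and 49. Its neighbours were thus nearer than those of any other of the 5. For the LCP-14-like unigene they were a cytochrome P450 4C1-like unigene (c176445_g5_i1, 0.55) with 1334, 3394 and 4 reads and a tyrosine aminotransferase-like unigene (c180183_g1_i2, 1.16) with 1041, 1602 and 1. For the LCP-30-like unigene they were a fatty acid elongase unigene (c180757_g5_i1, 0.51) with 117, 431 and 1 reads and a trypsin, alkaline C-like unigene (c181312_g4_i1, 0.62) with 1806, 8295 and 10. The cuticle protein 10.9-like unigene had the most distant neighbours, a UDP-glucuronosyltransferase ugt-58 unigene (c177235_g2_i1, 1.32) with 4602, 329 and 16 reads and a fatty acid elongase unigene (c37997_g1_i1, 1.41) with 2445, 33 and 2. None of these neighbours carried a cuticle protein name.

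The other 11 cuticle protein unigenes did not share a single order of libraries either. Of the 7 that met the minimum of 50 reads, 2 were at least 4-fold higher and 1 lower in T4 than in T25. The shares of all unigenes were 20.0% and 12.7%. In T40 against T25, 1 was higher and 4 were lower, beside 30.7% and 30.1% of all unigenes. In T40 against T4, 0 of 6 were higher and 3 lower, beside 22.5% and 31.1%. The median log2 ratios of the other cuticle unigenes were 0.89, -2.02 and -2.79 in that order of comparisons. In all 3 comparisons this median lay on the same side of 0 as that of the 5 unigenes and nearer to 0. Summed over the 9 with counts in all 3 libraries, their RPM came to 697 at 4 °C, 929 at 25 °C and 244 at 40 °C, a sum 3.802-fold lower in T40 than in T25 where that of the 5 was 40.9-fold lower. By summed FPKM the 9 were 1.47-fold lower and the 5 were 53.5-fold lower, and without the cuticle protein 6.4-like unigene, described below, the scaled reads of the other 8 were 8.71-fold lower. As the 5 were picked with their read counts in view, nothing is read from the difference between these sums.

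The cuticle protein 16.8-like unigene (c179595_g1_i1) had the order of the LCP-14-like and LCP-30-like unigenes, with 3906 reads in T4, 7807 in T25 and 56 in T40, and was 192-fold lower in T40 than in T25 (95% counting interval 148 to 255). Cuticle protein 1 (c151428_g1_i1), matched to a protein of the moth *Lonomia obliqua*, also had this order, but with 10548, 16345 and 2986 reads it was 7.55-fold lower (7.26 to 7.85). An SgAbd-5-like unigene (c132473_g1_i1), related by name to the ABD-5-like unigene, had 642, 266 and 4 reads and was 91.7-fold lower in T40 than in T25 (35.4 to 339). For the ABD-5-like unigene the ratio of T40 to T25 was 1.32 with an interval that includes 1, so these related names gave different values at 40 °C. A cuticle protein 1-like unigene (c180120_g2_i1) with 19, 59 and 20 reads was 4.04-fold lower in T4 (2.38 to 7.18) and 4.07-fold lower in T40 (2.41 to 7.13). The remaining 4 cuticle protein unigenes had at most 21 reads in any library and are only named, as SgAbd-5-like isoform X2 (c166463_g1_i3), cuticle protein 16.5 (c173806_g1_i3), larval cuticle protein A3A-like (c179454_g10_i1) and cuticle protein-like (c116883_g2_i1).

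Other cuticle protein unigenes were also higher in T4 than in T25, as the LCP-1-like unigene was. The LCP-17-like unigene (c183811_g3_i1) had 8365 reads in T4, 1108 in T25 and 693 in T40, and was 5.80-fold higher in T4 than in T25 (95% counting interval 5.44 to 6.18), close to the 5.21-fold of LCP-1-like. In T40 it was 2.21-fold lower than in T25 (2.004 to 2.428), against 11.1-fold for LCP-1-like. The cuticle protein CP14.6-like unigene (c157029_g1_i1) was higher than the control at both temperatures, with 388, 71 and 288 reads and ratios of 4.196 (3.25 to 5.48) in T4 and 2.94 (2.26 to 3.87) in T40. The cuticle protein 6.4-like unigene (c184656_g6_i1) had its most reads in the hot library, with 1529, 354 and 5379, and was 11.0-fold higher in T40 than in T25 (9.89 to 12.3). At 40 °C its FPKM of 1017 was above the 46.3 of the 5 described unigenes together.

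**Figure D5:**
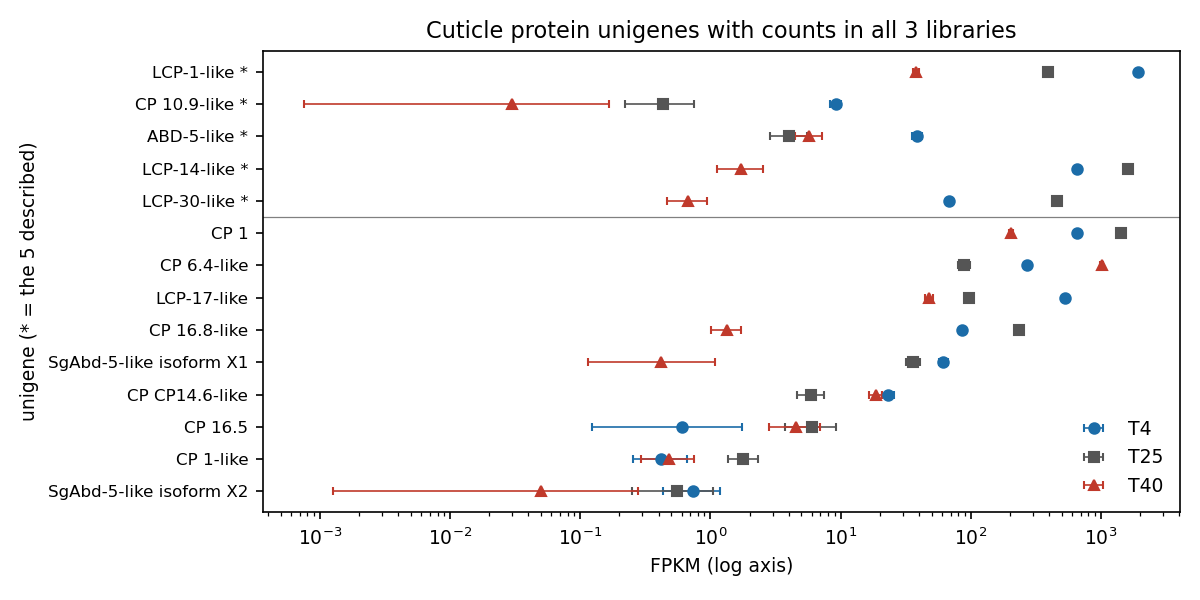
FPKM on a log axis of the 14 cuticle protein unigenes with counts in all 3 libraries, T4 as blue circles, T25 as grey squares and T40 as red triangles, with 95% counting intervals; the 5 described are marked with an asterisk above the line. Among the others, the cuticle protein 6.4-like unigene has its highest level in T40 (1017) and the cuticle protein 16.8-like unigene its lowest (1.33).

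Chitin, the fibre to which these proteins bind, is made by chitin synthase from a nucleotide sugar and trimmed by chitinases and deacetylases. Of the chitin synthesis and remodelling list, 2 of 16 unigenes were at least 4-fold higher and 2 lower in T4 than in T25. In T40 against T25, 4 of 18 were higher and 10 lower. Over all unigenes the shares were 20.0% higher and 12.7% lower in T4, and 30.7% and 30.1% in T40. The median log2 ratios of the list were 0.68 and -2.53. Chitin synthase (c188078_g2_i1) had 6270 reads in T4, 4024 in T25 and 24194 in T40 and was 4.36-fold higher in T40 than in T25. The midgut lining described below also holds chitin, and the name of this unigene does not give its tissue. A probable chitinase 10 (c189255_g1_i1) had 13958, 14376 and 46 reads and was 431-fold lower, a ratio of the same order as those of the LCP-14-like and LCP-30-like unigenes.

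Tanning enzymes harden and colour new cuticle by oxidising catechols that cross-link its proteins. In that list 0 of 9 unigenes were past 4-fold in either direction in T4 against T25, where 20.0% of all unigenes were higher and 12.7% lower. In T40 against T25, 2 of 10 were higher and 7 lower, beside 30.7% and 30.1% of all unigenes. The medians of the list were -0.27 and -2.76. Prophenoloxidase subunit 2 (c186243_g3_i3), the precursor of a catechol oxidase, had 3941 reads in T4, 3982 in T25 and 579 in T40. It was 9.49-fold lower in T40 than in T25, and its name does not show that it acts in cuticle. The protein yellow-like unigene (c196354_g1_i1), of a family known for cuticle pigmentation in *Drosophila*, had 658, 415 and 5070 reads and was 8.86-fold higher.

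The steroid 20-hydroxyecdysone drives the moult and the timing of cuticle gene expression through the ecdysone receptor. Of the list of its response genes, 0 of 5 were at least 4-fold higher and 1 lower in T4 than in T25. In T40 against T25, 0 of 7 were higher and 3 lower. Over all unigenes the shares were 20.0% higher and 12.7% lower in T4, and 30.7% and 30.1% in T40. The medians of the list were -0.40 and -1.51. The ecdysone-induced transcription factor 74EF (c189602_g2_i2) had 33949 reads in T4, 17171 in T25 and 9587 in T40, a ratio of 1.52 in T4 and 2.47-fold lower in T40. The ecdysone receptor (c182468_g1_i4) had 10930, 8504 and 4109 reads, with a T4/T25 ratio of 0.987 and a 2.85-fold lower level in T40. In T40 against T4 the chitin list had 1 higher and 10 lower of 16. The tanning list had 2 higher and 6 lower of 10, and the moult list 0 higher and 3 lower of 5. Of all unigenes, 22.5% were higher and 31.1% lower. Sums of scaled reads were taken over the unigenes with counts in all 3 libraries. The chitin list was 2.11-fold, the tanning list 1.81-fold and the moult list 3.97-fold lower in T40 than in T25. The other 9 cuticle protein unigenes were 3.80-fold lower by this sum. The 5 described cuticle unigenes were 40.9-fold lower, but they were chosen on these same comparisons, so their larger fold is not evidence of a difference from the lists. By summed FPKM the moult list was 9.82-fold lower. The chitin and tanning sums include chitin synthase and the yellow-like unigene, which had their most reads in T40. Sums without them were not computed. The log2 T40/T25 ratios of these sums, -1.08 and -0.86, lay above the list medians of -2.53 and -2.76.

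Sums over genes of other tissues in these whole-body libraries also differed between temperatures. In T40 against T25, 30.1% of all unigenes were at least 4-fold lower and 30.7% higher. The muscle list summed to 42415 RPM in T4, 49489 in T25 and 7448 in T40, and 12 of its 24 unigenes were at least 4-fold lower and 6 higher in T40 than in T25 (median log2 ratio -2.03). The fat body list, made of storage proteins and lipid carriers, summed to 179137, 87319 and 24054, with 3 of 6 unigenes lower and 1 higher (median -1.98). The nerve list summed to 52.7, 30.3 and 20.0, with 0 of 9 lower and 1 higher (median 0.14). The 3 sums were thus lowest in T40, as was that of the 5 cuticle unigenes. In T40 the muscle sum was 6.64-fold, the fat body sum 3.63-fold and the nerve sum 1.51-fold lower than in T25. The sum of the 5 cuticle unigenes was 40.9-fold lower. These were picked with their read counts in view, so no difference from the lists is read from it. The other 9 cuticle protein unigenes with counts in all 3 libraries summed to 3.80-fold lower (1.47-fold by FPKM).

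The gut lists had their highest sums in T40. Of all unigenes, 30.7% were at least 4-fold higher and 30.1% lower in T40 than in T25. The midgut list, of trypsin, aminopeptidase N and carboxypeptidase names that include some enzymes of other tissues, summed to 2613 RPM in T4, 2074 in T25 and 11493 in T40, with 21 of 50 unigenes higher and 16 lower in T40 than in T25 (median 0.17, below the 0.49 of all unigenes). Its T40 sum was 5.54-fold that of T25 from scaled reads and 3.63-fold from FPKM, and by FPKM its T4 sum was 1.51-fold below that of T25, against 1.26-fold above it from scaled reads. The peritrophic matrix is the chitin lining of the midgut and carries its own chitin-binding proteins. Its list summed to 130, 24.4 and 834 RPM (652, 281 and 3869 by FPKM), with 4 of 4 unigenes at least 4-fold higher in T40 than in T25 (median 5.82) and 2 of 3 in T4 than in T25 (median 4.99). A peritrophin-like unigene (c179826_g3_i2) had 2580 reads in T4, 21 in T25 and 21428 in T40, and peritrophin membrane protein 1 (c180952_g3_i1) had 1774, 652 and 9551. In T4 against T25, 20.0% of all unigenes were at least 4-fold higher and 12.7% lower. In the muscle list 5 of 26 were higher and 2 lower, and in the fat body list 3 and 0 of 6. In the nerve list it was 3 and 2 of 8, and in the midgut list 9 and 14 of 50. Whether these differences in the tissue lists and in the moult hormone list had a part in the levels of the cuticle unigenes was not tested.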

How the data were processed

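RNA-seq of whole *S. frugiperda* larvae gave 1 library per temperature. Quality was checked (FastQC 0.11.7), reads were trimmed (Trimmomatic 0.38) and assembled de novo, and the deposited counts of the authors are RSEM estimates from Bowtie 1.1.2 alignments. FPKM as deposited is scaled to length and depth. The other deposited values are the authors' normalized log2 values. They were read as the log2 of 1 plus RPM. The effective library sizes are the medians over unigenes of the sizes that these values imply. The 3 tables list only unigenes called by the authors. The authors' fold change and P columns were not used.

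Ratios of counts over these sizes were computed with a pseudocount of 0, with 95% exact Clopper-Pearson intervals. Their coding was checked on simulated Poisson counts, the setting they assume. That check cannot show how they hold for RSEM estimates or for variation between larvae. Fold counts required at least 50 reads in the higher library and a 4-fold difference. Members, the 9 lists (patterns on the annotation text) and settings were chosen with earlier results of these data known. Serpins and fibrohexamerins that the midgut and fat body patterns had caught were removed after values were seen. Named genes were the 5 members, the 5 most abundant and the extreme 2 higher and 2 lower other cuticle proteins, the 2 most abundant of each other list, and the 2 nearest unigenes per member. For muscle, fat body, midgut and nerve only summaries are given. Alternatives were TMM scaling (edgeR 4.0.16), trimmed read totals, table totals, FPKM ratios, pseudocounts of 1 and 10, other fold and read limits, and unigenes with an NR hit only. Summed FPKM, a sum without the cuticle protein 6.4-like unigene and a median over members with at least 50 reads were added after seeing the data. Protein and DNA sequences were not analysed here. Software was R 4.3.3 and Python 3.11.15 with pandas 2.3.3, scipy 1.17.1, numpy 2.4.6 and matplotlib 3.10.9.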

Additional observations from a re-analysis of the deposited data

How the results depend on the processing

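No paired analysis was possible because each temperature has 1 library. All 90 alternative values of the 15 ratios of single cuticle unigenes (6 settings) kept their sign. The median T4/T25 log2 ratio, 2.38, became 2.34 with TMM scaling, 2.25 with trimmed read totals, 2.21 with table totals, 2.29 from FPKM and 0.63 as a ratio of summed reads, and the causes of these shifts were not tested. The T40/T25 median, -4.05, became -3.48 and -3.47 with pseudocounts of 1 and 10 and -5.35 from summed reads. Over the members with at least 50 reads, added after seeing the data, it was -6.51. The T40/T4 median, -6.90, became -5.85 with a pseudocount of 10 and -5.98 from summed reads. With a 2-fold limit 2 unigenes were lower in T4 than in T25, and with an 8-fold limit 0 were, against 1 at 4-fold. The 8-fold limit left 2 of 3 higher in T4/T25 and 4 of 5 lower in T40/T4, and with no minimum of reads 4 rather than 3 were lower in T40/T25. Among the unigenes called by the authors, which are not the whole assembly, the share past the limit was 32.7%, 60.8% and 53.5% in T4/T25, T40/T25 and T40/T4. It was 64.0%, 93.2% and 88.2% at 2-fold and 15.8%, 32.8% and 27.2% at 8-fold. At 4-fold, the other read limits and the restriction to NR hits gave 9 further values, each within 1.5 times of its share above. Scaling moved the median of all unigenes by at most 0.28, in T40/T4 with trimmed read totals. Summed FPKM, also added after seeing the data, turned the midgut T4/T25 log2 ratio from 0.33 to -0.59.

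The counting intervals do not cover variation between larvae, which 1 pool per temperature cannot show. Depth limits the T40 levels of the cuticle protein 10.9-like (1 read), LCP-14-like (26) and LCP-30-like (33) unigenes. Unigenes that the authors did not call were not analysed here, so shares are of called unigenes.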

Other observations

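The Chitin_bind_4 domain was recorded for 18 unigenes of the tables, and 6 of these carried no cuticle protein name. They were picked out after their values had been seen. An uncharacterized unigene, c183389_g5_i1, had 15629 reads in T4, 6778 in T25 and 20 in T40. It was 1.77-fold higher in T4 than in T25, 467-fold lower in T40 than in T25 and 828-fold lower in T40 than in T4. Its T40/T25 ratio was thus of the order of those of the LCP-14-like and LCP-30-like unigenes, but its T4/T25 ratio was above 1 where theirs were below 1.

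Lower levels in T40 than in T25 were also measured for c183471_g5_i1, which is described as a collagen alpha-2(IV)-like protein (413, 269 and 39 reads, 9.51-fold), for c179939_g1_i1 (398, 320 and 65 reads, 6.79-fold) and for c127205_g1_i1 (83, 70 and 7 reads, 13.8-fold). A unigene named after lethal(3)malignant blood neoplasm 1, c167164_g1_i2, lay the other way with 21, 23 and 168 reads and a ratio of 5.30. An extensin-like unigene, c149829_g1_i1, had 13, 11 and 2 reads. Over all 18 unigenes with the domain, 1 of the 14 that met the minimum of 50 reads was at least 4-fold higher and 10 were lower in T40 than in T25, beside 30.7% and 30.1% of all unigenes. In T4 against T25, 5 of 14 were higher and 1 lower, beside 20.0% and 12.7%. In T40 against T4, 1 of 15 was higher and 12 were lower, beside 22.5% and 31.1%. The 5 described cuticle unigenes, chosen on these comparisons, are among the 18. They supply 3 of the 5 higher and the 1 lower in T4 against T25. They also supply 3 of the 10 lower in T40 against T25 and 5 of the 12 lower in T40 against T4. Nothing is read from these counts.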
